A study of Mus musculus with 12 samples.

Results

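Cd34, Wfdc3 and Angptl7 were selected on these same arrays as 3 of the genes with the largest signal in the bulge relative to the hair germ, among 18193 measured genes. They were represented by 4 probe sets, of which Wfdc3 had 2 and the other genes 1 each. The cells came from the back skin of female mice aged 72 to 74 days of mixed C57BL/6 and CD1 strain. They were at the passage from the second telogen, the resting phase of the hair cycle, to anagen, its growth phase. Bulge cells, hair germ (HG) cells and total keratinocytes were purified by flow cytometry on Rosa26-YFP, P-cadherin and CD34 from TßRII-cKO and TßRII-Het mice, a conditional knockout and a heterozygous control for the type II TGF-beta receptor as these names are read here. Each fraction of each genotype was collected in set 2 and in set 1 and put on 1 array, which gave 12 arrays. The labels call set 2 aberrantly quiescent in cKO and activated in Het, and set 1 quiescent in both, for HG and bulge alike. Hence 8 groups held 1 array each, and the total keratinocytes of cKO and of Het held 2 arrays each. The labels used here name no agent, no promoter that drives the Cre and no number of mice per array, and leave it unsaid whether the fractions of a set shared mice. HG and bulge together are called HFSCs, for hair follicle stem cells.

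The bulge is the long-lived niche of the follicle, and the hair germ is the cell cluster below it that divides first when growth resumes. CD34 is a sialomucin of the cell surface that marks blood progenitors and endothelium, and in mouse skin it marks the bulge. Wfdc3 belongs to the WAP four-disulfide core genes, a family that includes secreted protease inhibitors. Angptl7 encodes a secreted angiopoietin-like protein, described in mouse skin as a product of quiescent hair follicle stem cells that acts on lymphatic capillaries. CD34 was also a sort marker, so its transcript level in each fraction follows in part from the gate.

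The promoters of the 3 genes are shown because their transcripts were high in the same fraction. RefSeq places Cd34 on the plus strand at chr1:194938821-194961292, Wfdc3 on the minus strand at chr2:164731226-164745994 and Angptl7 on the minus strand at chr4:148495181-148500462, all in the build GRCm38.p6. Angptl7 lies within the span of Mtor, which runs on the plus strand. The 250 bases before each RefSeq start are chr1:194938571-194938820 for Cd34, chr2:164743268-164743517 for Wfdc3, which lies inside the annotated span of the gene, and chr4:148500463-148500712 for Angptl7. They are given 5′ to 3′ on the strand of the gene, with capitals marking the motifs found.
Cd34: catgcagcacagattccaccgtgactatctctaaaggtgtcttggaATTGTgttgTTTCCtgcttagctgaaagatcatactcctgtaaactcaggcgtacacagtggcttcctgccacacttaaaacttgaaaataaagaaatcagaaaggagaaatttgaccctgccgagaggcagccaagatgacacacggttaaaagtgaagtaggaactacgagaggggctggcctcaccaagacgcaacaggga
Wfdc3: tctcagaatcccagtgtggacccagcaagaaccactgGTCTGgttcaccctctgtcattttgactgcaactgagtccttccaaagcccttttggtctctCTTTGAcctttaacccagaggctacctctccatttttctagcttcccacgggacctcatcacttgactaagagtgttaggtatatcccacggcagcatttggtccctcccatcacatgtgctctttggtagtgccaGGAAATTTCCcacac
Angptl7: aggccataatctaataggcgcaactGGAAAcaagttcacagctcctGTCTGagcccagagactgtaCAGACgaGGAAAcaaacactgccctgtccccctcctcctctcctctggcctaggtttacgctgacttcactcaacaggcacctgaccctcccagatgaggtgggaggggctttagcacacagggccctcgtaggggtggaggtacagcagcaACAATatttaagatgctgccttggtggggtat

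Each motif was searched on both strands, and no matches overlapped. The NFAT core GGAAA, the core bound by the bulge factor Nfatc1, was found in all 3 promoters and in 55.6% of 32851 RefSeq promoters of the same length. It stood in both orientations side by side in Wfdc3, from base -15 to base -6 before the start. The Smad motif CAGAC, bound by effectors of TGF-beta signalling, was found in Wfdc3 and Angptl7 and in 42.2% of all promoters. The Sox motif ACAAT was found in Cd34 and Angptl7 and in 27.7% of all promoters, and the Tcf/Lef motif CTTTGA was found in Wfdc3 and in 13.8%. None of the 3 windows held the letters TATAAA (12.4% of all promoters), CCAAT (33.8%), the Lhx motif TAATTA (4.84%) or the Fox motif GTAAACA (3.17%). The windows held 6 CpG dinucleotides in Cd34, 2 in Wfdc3 and 4 in Angptl7, against a median of 6 over all promoters.

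All 3 genes had their highest signal in the bulge on every one of the 4 combinations of genotype and set. Values are MAS5 signals, a probe set's brightness on a linear scale, which the authors had scaled to a trimmed mean of 500 per array. Array medians ranged from 64.1 to 109. The HG array of Het set 2 stood apart from the other 3 HG arrays. The summed signal of the keratins Krt5 and Krt14 was 36173 on it and 85867 to 91082 on the others, that of 30 bulge stem cell genes 78475 and 143190 to 157865, and that of 6 immune genes 1182 and 3497 to 3914. In contrast, the summed signal of 14 hair germ genes was highest on it, with 52892 against 31178 to 37573 on the others. This array was also the only HG array that the labels call activated. As these are bulk samples, fewer cells of a type and less RNA per cell cannot be told apart. Tgfbr2 gave no check of the genotype labels, as the sources used here do not say where its probes lie against the deleted part.

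Cd34 had bulge signals of 23189 in cKO set 2, 21899 in cKO set 1, 28386 in Het set 2 and 24749 in Het set 1. HG signals were 297 in cKO set 2, 338 in cKO set 1, 200.4 in Het set 2 and 413 in Het set 1. Total keratinocyte signals were 1048 and 1822 in cKO set 2 and set 1, and 1632 and 2529 in Het set 2 and set 1. The 3 fractions did not overlap, and the order was bulge, total keratinocytes, HG. The bulge arrays stood close together, with the highest 1.30 times the lowest, whereas the spread was 2.06-fold in HG and 2.41-fold in total keratinocytes. Total keratinocytes had 4.52% and 8.32% of the bulge signal in cKO set 2 and set 1, and 5.75% and 10.2% in Het set 2 and set 1.

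Wfdc3 had bulge signals of 6701 in cKO set 2, 3659 in cKO set 1, 8363 in Het set 2 and 5546 in Het set 1. HG signals were 177 and 151 in cKO set 2 and set 1, and 85.1 and 132 in Het set 2 and set 1. Total keratinocyte signals were 409 and 345 in cKO set 2 and set 1, and 392 and 583 in Het set 2 and set 1. The fractions again did not overlap and had the same order as for Cd34. The highest bulge array was 2.29 times the lowest, and within each genotype set 2 was the higher one. Total keratinocytes had 6.11% and 9.42% of the bulge signal in cKO set 2 and set 1, and 4.69% and 10.5% in Het set 2 and set 1.

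The second Wfdc3 probe set stayed low and did not separate the fractions. Its signals lay between 16.0 and 106 in the bulge, between 21.2 and 71.8 in HG and between 32.8 and 61.0 in total keratinocytes. It passed the pooled median of all arrays, 84.7, on 2 bulge arrays and on no other array, and it was below the floor of 20.7 on 1 bulge array. Its bulge minus HG difference was -0.03 in cKO set 2, 0.56 in cKO set 1, 2.01 in Het set 2 and 0.31 in Het set 1, on the log2 scale. The brighter probe set therefore carries every Wfdc3 value that follows, unless the mean of both is named.

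Angptl7 had bulge signals of 8922 in cKO set 2, 5618 in cKO set 1, 3700.1 in Het set 2 and 4043 in Het set 1. HG signals were 224 and 198 in cKO set 2 and set 1, and 48.1 and 134 in Het set 2 and set 1. Total keratinocyte signals were 117 and 231 in cKO set 2 and set 1, and 433 and 528 in Het set 2 and set 1. The bulge stood above both other fractions on every array, and both cKO bulge arrays were above both Het bulge arrays. With so few arrays per genotype this is a description, and the share of all genes separated in this way was not counted. HG and total keratinocytes overlapped, so their order is not separated by the spread. In cKO set 2 the HG signal was above that of total keratinocytes, whereas in the other 3 conditions it was below. Total keratinocytes had 1.31% and 4.11% of the bulge signal in cKO set 2 and set 1, and 11.7% and 13.1% in Het set 2 and set 1.

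**Figure D1:**
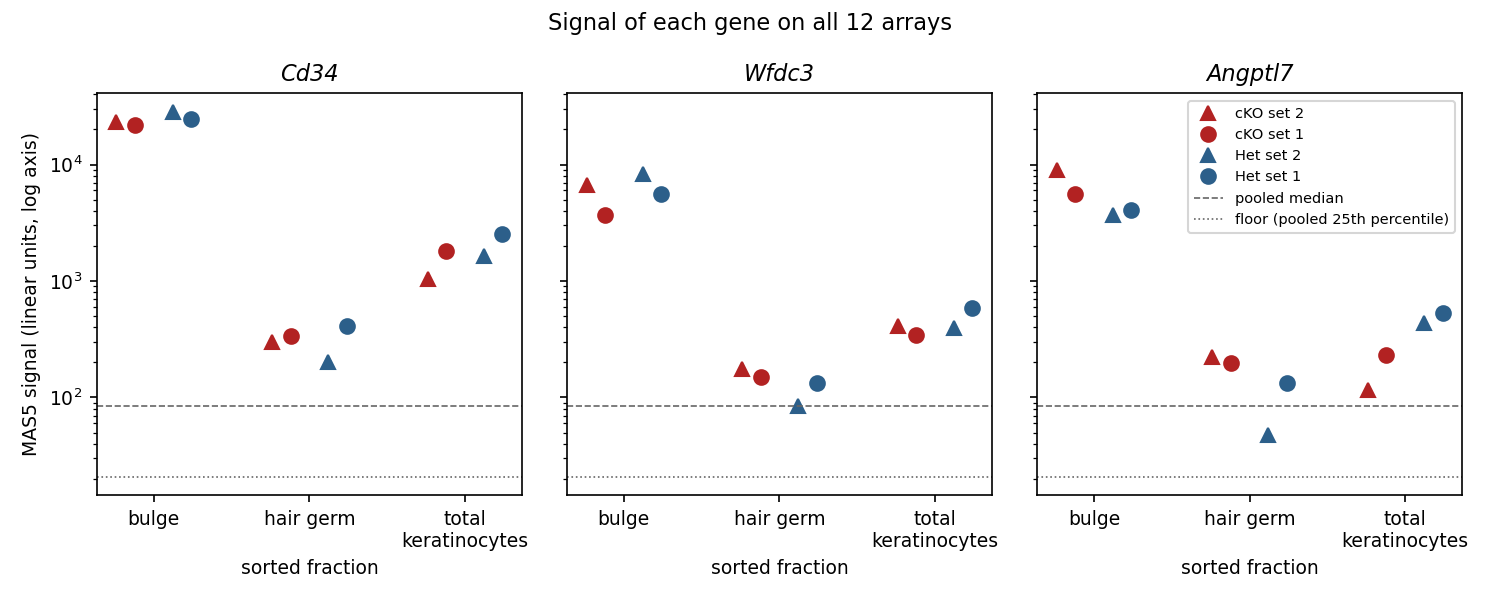
MAS5 signal (linear units on a log axis) of Cd34, Wfdc3 (brighter probe set) and Angptl7 by sorted fraction, with 1 point per array, colour for genotype and marker for set; the dashed line is the pooled median and the dotted line the floor. All bulge points lie at 3659 units or more, Cd34 and Wfdc3 separate all 3 fractions, and the HG and total keratinocyte points of Angptl7 overlap.

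The difference between bulge and HG chose these genes and is given as a description without a test. On the log2 scale, with values below the pooled 25th percentile raised to it, bulge minus HG averaged 6.34 ± 0.56 for Cd34, 5.46 ± 0.84 for Wfdc3 and 5.33 ± 0.66 for Angptl7 (SD over 4 conditions). These correspond to geometric mean ratios of 81.0, 44.1 and 40.3. Cd34 stood at place 2, Wfdc3 at place 4 and Angptl7 at place 6 of 12589 genes with a signal above the pooled median on 2 or more HG or bulge arrays. The genes between and around them were Fgf18, a growth factor of the resting bulge (at least 7.07), Krt24 (5.56) and Krt6a (5.45), both keratins, Gfra1, a receptor for GDNF (5.32), Pdlim3 (at least 5.28) and Ppp1r3c (at least 5.25). The value just outside was thus 5.32, that of Gfra1, beside 5.33 for Angptl7. Fgf18 and Pdlim3 were at the floor on 2 HG arrays each and Ppp1r3c on 1, so their values are lower bounds and the places below Fgf18 rest on the floor. By the difference in linear signal the 3 genes stood at places 19, 145 and 164. In the same comparison 10.7% of genes were higher in the bulge and 8.44% lower at an adjusted p under 0.05 (limma). The count in both directions, 2414, dropped to 1201 when Het set 1 was left out, to 1304 for cKO set 2 and to 1413 for cKO set 1.

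Within conditions, the gap was widest in Het set 2 for each of the 3 genes. For Cd34 it was 6.29 in cKO set 2, 6.02 in cKO set 1, 7.15 in Het set 2 and 5.91 in Het set 1. For Wfdc3 it was 5.24 in cKO set 2, 4.60 in cKO set 1, 6.62 in Het set 2 and 5.39 in Het set 1. For Angptl7 it was 5.32 in cKO set 2, 4.83 in cKO set 1, 6.27 in Het set 2 and 4.92 in Het set 1. The HG array of Het set 2, which stood apart in the keratin, bulge, immune and hair germ sums above, had the lowest HG signal of all 3 genes. Its part in the wider gap was not tested. Without Het set 2 the mean gap was 6.07 for Cd34, 5.08 for Wfdc3 and 5.02 for Angptl7. The difference between bulge and total keratinocytes was larger in set 2 than in set 1 for every gene and genotype. It ranged from 2.94 (Angptl7, Het set 1) to 6.26 (Angptl7, cKO set 2). Neither this nor the wide gap of Het set 2 was particular to these genes, as the mean over 30 other bulge stem cell genes showed both. Gene by gene, 20 of the 30 had a wider gap between bulge and HG in set 2, over both genotypes. The mean log2 signals of all 30 in bulge, HG and total keratinocytes of Het were 12.30, 9.82 and 10.29 in set 2, and 12.23, 10.27 and 10.64 in set 1. In cKO they were 12.14, 10.18 and 9.73 in set 2, and 12.01, 10.16 and 10.23 in set 1.

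**Figure D2:**
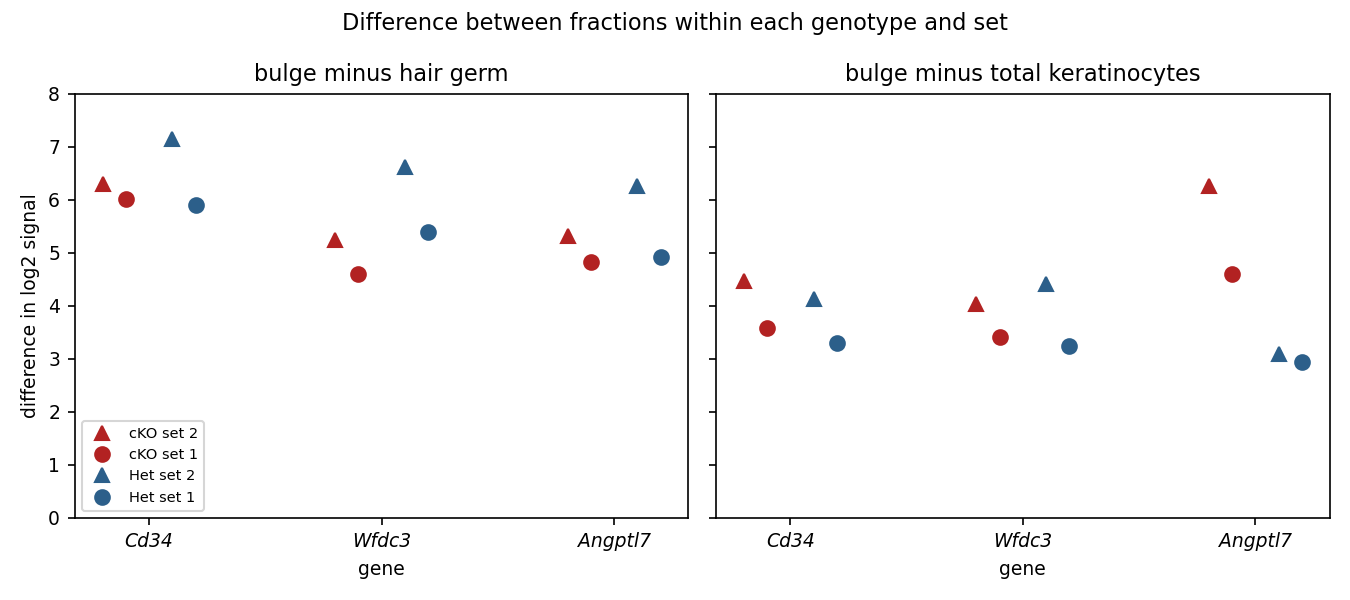
Difference in log2 signal between bulge and hair germ (left) and between bulge and total keratinocytes (right) for each gene, with 1 point per genotype and set. In the left panel the Het set 2 point is the highest for each gene; in the right panel the cKO points of Angptl7, 6.26 and 4.60, lie above its Het points, 3.09 and 2.94.

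The comparison of genotypes asked whether loss of the receptor goes with another level of these genes. Over the 3 fractions, no difference between cKO and Het passed the test for any of them. Cd34 was lower in cKO in 5 of 6 pairs of arrays, with a difference of -0.22 (SE 0.16, 95% interval -0.56 to 0.12, adjusted p = 0.70). Wfdc3 was higher in cKO in 3 of 6 pairs, with a difference of -0.06 (95% interval -0.54 to 0.41, adjusted p = 0.95). Angptl7 was higher in cKO in 4 of 6 pairs, with a difference of 0.24 and a wide 95% interval from -0.69 to 1.17 (adjusted p = 0.89). Its opposite directions between fractions, given below, are part of the residual of this fit and widen that interval. The share of all genes called was 0% of 12749, with 1099 at an unadjusted p under 0.05 (limma). Without both HG arrays of set 2, one of which stood apart, the differences were -0.37, -0.28 and -0.15 for Cd34, Wfdc3 and Angptl7, and none passed (lowest adjusted p = 0.65).

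The fractions went in opposite directions for Angptl7. Its cKO minus Het difference was 1.27 in set 2 and 0.47 in set 1 in the bulge, and 2.22 in set 2 and 0.57 in set 1 in HG. In total keratinocytes it was -1.89 in set 2 and -1.19 in set 1. With the 4 total keratinocyte arrays alone the difference was -1.54 (SE 0.38, 95% interval -2.45 to -0.64), with an unadjusted p of 0.0050 and an adjusted p of 1.00 in limma. The cKO arrays lay below the Het arrays without overlap, with only 2 arrays per genotype. The share of all genes separated in this way was not counted. In this fit 0% of 11121 genes were called and 247 had an unadjusted p under 0.05. Without the cKO array of set 1 the difference was -2.04 (adjusted p = 0.0043), and 59 genes were called, so that call rests on 1 cKO array. Without the Het array of set 1 the number called was 8, and without the cKO array of set 2 it was 10.

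The difference between these directions was itself tested, in a comparison added after the values were seen. The cKO minus Het difference in HFSCs exceeded that in total keratinocytes by 2.68 for Angptl7 (SE 0.49, 95% interval 1.59 to 3.76, unadjusted p = 2.23e-04, adjusted p = 0.87). For Cd34 the same value was 0.51 (adjusted p = 0.87) and for Wfdc3 0.43 (adjusted p = 0.91). Of all 12749 genes 0% were called and 616 had an unadjusted p under 0.05. Without both HG arrays of set 2 the Angptl7 value was 2.31 (adjusted p = 0.31). In total keratinocytes alone, cKO minus Het was -0.56 for Cd34 and -0.35 for Wfdc3 (both adjusted p = 1.00). Among 30 bulge stem cell genes, 29 were tested in total keratinocytes, where 6 had a positive difference and the median was -0.49, against -0.00498 over all genes, and 0 passed. In cKO total keratinocytes the summed signal of 6 fibroblast genes was 18188 in set 2 and 46851 in set 1, against 18773 in set 2 and 27444 in set 1 in Het. The summed signal of 6 immune genes was 6164 in set 2 and 6048 in set 1 in cKO, against 2284 in set 2 and 3608 in set 1 in Het. All 6 had a positive cKO minus Het difference in total keratinocytes, with a median of 0.92, and 0 passed while 4 had an unadjusted p under 0.05 (limma). The share of immune or bulge cells in each total keratinocyte sample was not tested.

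The sets were compared because the labels give set 2 of Het as activated. Set and activation cannot be told apart, as each state of Het HFSCs lies in 1 set. Over all fractions and both genotypes, set 2 minus set 1 was -0.40 for Cd34 (SE 0.17, 95% interval -0.77 to -0.02, adjusted p = 0.17). It was 0.12 for Wfdc3 (95% interval -0.33 to 0.58, adjusted p = 0.74) and -0.34 for Angptl7 (95% interval -0.89 to 0.21, adjusted p = 0.41). None passed, while 5.1% of all genes, or 650, were called. That count was 10 without the Het total keratinocytes, 73 without the Het bulge, 132 without the cKO HG and 161 without the cKO total keratinocytes. Without both Het HG arrays the set difference was -0.27 for Cd34, 0.27 for Wfdc3 and -0.11 for Angptl7, and none passed (lowest adjusted p = 0.30). Cd34 was lower in set 2 in 4 of 6 pairs, and the 2 pairs in which it was higher were those of the bulge.

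In Het HFSCs the set difference was -0.80 for Angptl7 (SE 0.35, 95% interval -1.59 to -0.01, adjusted p = 0.29). It was -0.42 for Cd34 (95% interval -1.10 to 0.26, adjusted p = 0.51) and -0.02 for Wfdc3 (95% interval -0.94 to 0.90, adjusted p = 0.99). None passed, with 0.707% of 12589 genes called. The Angptl7 value joins a small difference in the bulge, -0.13, with a larger one in HG, -1.48. That disagreement between the fractions is part of the residual of the fit. Without the Het bulge array of set 2 the Het values became -1.42 for Angptl7 (adjusted p = 0.0037) and -0.96 for Cd34 (adjusted p = 0.0109), and 2552 genes were called. Without the Het HG array of set 2 they were -0.18 for Angptl7 (adjusted p = 0.80) and 0.12 for Cd34 (adjusted p = 0.86), and 264 genes were called. Leaving out any 1 of the other 6 arrays gave between 0 and 30 called genes.

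In cKO HFSCs the set difference was 0.42 for Angptl7 (95% interval -0.37 to 1.21, adjusted p = 0.84). It was 0.55 for Wfdc3 (95% interval -0.37 to 1.47, adjusted p = 0.83) and -0.05 for Cd34 (95% interval -0.73 to 0.63, adjusted p = 0.99). There 0% of genes were called, and 777 had an unadjusted p under 0.05. When either array of Het set 2 was left out, 92 were called. The cKO set effect exceeded that of Het by 1.22 for Angptl7 (SE 0.50, 95% interval 0.10 to 2.34, adjusted p = 0.68), by 0.57 for Wfdc3 (adjusted p = 0.84) and by 0.37 for Cd34 (adjusted p = 0.86). Endothelial genes had a median set difference of 0.47 in cKO HFSCs and -0.56 in Het HFSCs, and 6 of 7 had a positive difference of the set effects, with a median of 0.94. The median difference of set effects was 1.03 over 6 melanocyte genes and 0.93 over 8 angiopoietin and related genes, against 0.04 over all genes. No gene of these lists passed, and the part of other cells in the Angptl7 value was not tested. In this comparison 0.00794% of genes, or 1, were called. That gene, H2-Ea, encodes an MHC protein and is named only because the count is 1. Without the Het bulge array of set 2 the Angptl7 value was 1.85 (adjusted p = 0.0094) and 994 genes were called, and without the Het HG array of set 2 it was 0.60 (adjusted p = 0.51), with Cd34 at -0.17 and Wfdc3 at -0.20, and 77 were called.

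The gap between bulge and HG was also compared between genotypes and sets. Its difference, cKO minus Het, was -0.37 for Cd34 (95% interval -1.37 to 0.62), -1.08 for Wfdc3 (95% interval -2.18 to 0.01) and -0.52 for Angptl7 (95% interval -1.64 to 0.60). The adjusted p was between 0.93 and 0.94 for all 3, with 0% of genes called and 575 at an unadjusted p under 0.05. Wfdc3 was lower in cKO than in Het in the bulge of both sets and higher in HG of both sets. Set 2 minus set 1 of the gap was 0.76 for Cd34 (95% interval -0.09 to 1.60), 0.93 for Wfdc3 (95% interval -0.22 to 2.08) and 0.92 for Angptl7 (95% interval -0.03 to 1.87). The gap was wider in set 2 in both genotypes for each gene, and no value passed (adjusted p = 1.00), again with 0% of genes called and 435 at an unadjusted p under 0.05.

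Both comparisons of the gap rest on single conditions. Without Het set 1, leaving 1 residual degree of freedom, the genotype difference passed at -0.99 for Cd34 (adjusted p = 0.0234), -1.70 for Wfdc3 (adjusted p = 1.98e-04) and -1.19 for Angptl7 (adjusted p = 0.0174), while 1621 genes were called. Without Het set 2 it turned to 0.25 for Cd34 and 0.15 for Angptl7, with 51 genes called, and the set difference of the gap was 0.33 for Cd34, 0.24 for Wfdc3 and 0.45 for Angptl7 (adjusted p = 1.00). Without cKO set 2 the set difference of the gap passed at 1.18 for Cd34 (adjusted p = 0.0431), 1.62 for Wfdc3 (adjusted p = 0.0227) and 1.39 for Angptl7 (adjusted p = 0.0474), while 881 genes were called.

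**Figure D3:**
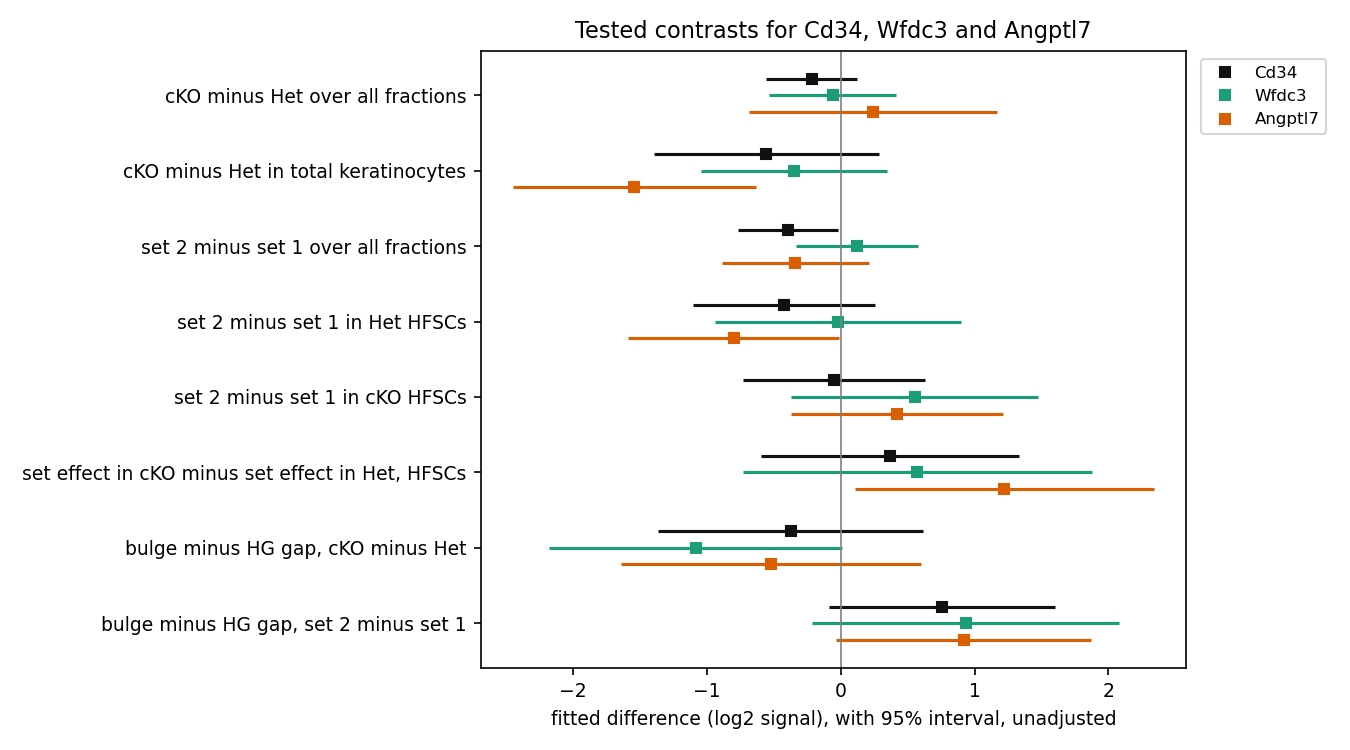
Fitted differences in log2 signal with unadjusted 95% intervals for Cd34 (black), Wfdc3 (green) and Angptl7 (orange) in 8 comparisons of genotype and set. No value passed an adjusted p of 0.05; 4 intervals do not reach 0, those of Angptl7 in total keratinocytes (-1.54), in Het HFSCs (-0.80) and in the difference of set effects (1.22), and that of Cd34 between sets (-0.40).

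The profile over the 12 arrays was shared with other genes high in the bulge. Because the fractions set most of the variation of all these genes, r over the arrays is a description of the fraction pattern. For Cd34 the 5 genes of highest Pearson r were Fgf18 (0.99), Gfra1 (0.99), Grem1, a BMP antagonist (0.99), Bicd2 (0.99) and Wfdc3 (0.99). For Wfdc3 they were Dap (r above 0.99), Grem1 (0.99), Cd34 (0.99), Gfra1 (0.98) and Krt24 (0.98). For Angptl7 they were Mn1 (0.98), Dapk2 (0.98), Akr1c14 (0.98), Dpt, an extracellular matrix gene (0.97), and Fam171b (0.97). Among the 3 genes, r was 0.99 between Cd34 and Wfdc3, 0.95 between Cd34 and Angptl7, and 0.96 between Wfdc3 and Angptl7. A high r among them follows from their choice by the bulge over HG gap on these same arrays. By r, Angptl7 stood at place 47 for Cd34 and at place 46 for Wfdc3. Bicd2 reached its r with a bulge minus HG difference of 1.78 and Dap with one of 2.27, as r does not measure the size of a gap.

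The relatives of the 3 genes are given by family, and their counts are to be read against the 10.7% of all genes called higher in the bulge and the 8.44% called lower. Of 24 WAP domain genes 16 were measured and 9 tested, and 1 was higher in the bulge and 0 were lower, a share near that of all genes. This was Wfdc17, by 1.58 (SE 0.30, adjusted p = 0.0065). Wfdc12 had a difference of 1.54 (SE 0.77, adjusted p = 0.20) and Wfdc5 one of -0.82 (SE 0.67, adjusted p = 0.43). Slpi, a secreted inhibitor of leukocyte proteases, had a difference of -0.21 (SE 0.48, adjusted p = 0.80). The median of the 9 was -0.23, against 0.02 over all genes tested.

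Of 13 angiopoietin, angiopoietin-like and related genes 11 were measured and 8 tested, and 2 were higher in the bulge and 0 lower, again beside 10.7% and 8.44% of all genes. Angptl1 rose by 4.30 (SE 0.41, adjusted p = 1.71e-04), with bulge signals of 1121 and 1298 in cKO set 2 and set 1, and 539 and 1301 in Het set 2 and set 1. Its HG signal was at most 131, and it lay below the floor on both HG arrays of set 2, so the difference is a lower bound. Fgl2 rose by 1.26 (SE 0.27, adjusted p = 0.0114). Angptl4, which encodes a secreted inhibitor of lipoprotein lipase, had a difference of -0.16 (SE 0.25, adjusted p = 0.71), with bulge signals between 404 and 889 and HG signals between 286 and 1152. Its cKO minus Het difference over all fractions was 0.76 (SE 0.18, adjusted p = 0.35). Between sets, Angptl1 fell by 1.63 in set 2 over all fractions (SE 0.31, adjusted p = 0.0275), where 5.1% of all genes were called. The number called there dropped from 650 to 10 without the Het total keratinocytes and to 0 with no filter. Its fall in HG is a lower bound, as both HG arrays of set 2 were below the floor. The median bulge minus HG difference of the 8 genes was 0.14.

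Of 9 genes of the CD34 family and its ligands 8 were measured and 3 tested. Podxl, a sialomucin related to CD34, had a difference of 0.81 (adjusted p = 0.19), its relative Podxl2 one of 0.53 (adjusted p = 0.43) and the adaptor gene Crkl one of -0.25 (adjusted p = 0.33). None passed, and the median was 0.53.

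**Figure D4:**
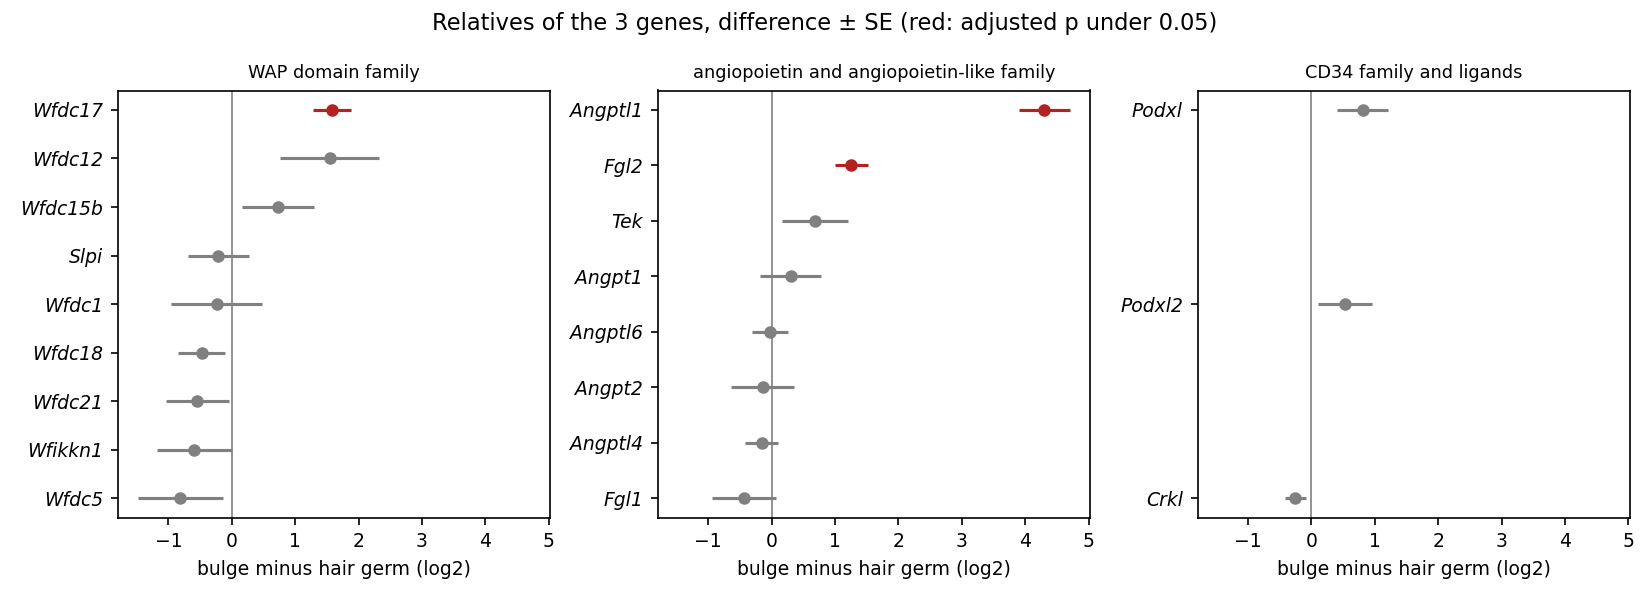
Bulge minus hair germ difference in log2 signal, with its standard error, for the tested relatives of Wfdc3 (left), Angptl7 (middle) and Cd34 (right). Wfdc17, Angptl1 and Fgl2, in red, had an adjusted p under 0.05, with differences of 1.58, 4.30 and 1.26.

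Genes next to the 3 in the genome varied in how they differed between bulge and HG. Before Cd34, Plxna2, a semaphorin receptor at a distance of 121952 bases, was higher in the bulge by 2.69 (SE 0.39, adjusted p = 0.0017). After it, A330023F24Rik was higher by at least 2.30 (adjusted p = 0.0355), as HG was at the floor, and Cd46 had a difference of 0.44 (adjusted p = 0.59). Dnttip1, 21 bases from Wfdc3, had a difference of 0.31 (SE 0.15, adjusted p = 0.18). The next gene, Ube2c, which acts in mitotic exit, was lower in the bulge, with a difference of -2.21 (SE 0.32, adjusted p = 0.0017). Mtor, whose span holds Angptl7, had a difference of -0.22 (SE 0.18, adjusted p = 0.42), and Exosc10 one of -0.26 (adjusted p = 0.35). Mir205hg, Disp3 and Srm also did not pass, at -0.06, 0.02 and -0.39, and Spint4 and Eppin near Wfdc3 were too dim to be tested. Fbxo2, at 328761 bases, was higher in the bulge by 2.48 (SE 0.57, adjusted p = 0.0161).

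Markers of the fractions, of fibroblasts and of melanocytes moved with the same comparison. Of 30 further bulge stem cell genes 23 were higher in the bulge and 1 was lower, with a median of 1.99, beside 10.7% higher and 8.44% lower among all genes. After Fgf18 and Krt24, the largest were those of Grem1 (4.06, adjusted p = 2.12e-05) and Igfbp6 (3.68, adjusted p = 1.19e-05), which binds insulin-like growth factors. The transcription factor Nfatc1 was at 3.26 (adjusted p = 3.24e-04), and the bulge keratin Krt15 at 0.79 (adjusted p = 0.12). Nfatc1, Krt15, Slpi and Angptl4 are named for what they are known to do, chosen after their values were seen. Of 14 hair germ genes 13 were tested and 10 were lower in the bulge, beside 8.44% of all genes. Among them were Shh (-4.21, adjusted p = 0.0065) and Lef1 (-2.46, adjusted p = 0.0087). The hair germ list includes Cdh3, the gene of the sort marker P-cadherin, whose level follows in part from the gate. Both lists were chosen with earlier results of these data known. All 6 melanocyte genes were lower in the bulge, with a median of -2.86, beside the same 8.44%.

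Fibroblast genes were higher in the bulge in 6 of 6 cases, beside 10.7% of all genes, with a median of 3.51 and Lum at 4.60 (adjusted p = 8.33e-07). Their summed signal was 123172 to 280840 in the bulge, 15126 to 28934 in HG and 18188 to 46851 in total keratinocytes. CD34 is also a marker of endothelium, whose 8 genes had a summed signal of 787 to 1586 in the bulge, 499 to 980 in HG and 307 to 703 in total keratinocytes. Of these, 7 were tested and 0 passed, with a median of 0.68 and 3 at an unadjusted p under 0.05 (limma). Of 6 immune genes 1, Lyz2, was higher in the bulge, beside 10.7% of all genes (1.13, adjusted p = 0.0053). No fibroblast or endothelial gene was at the floor on all arrays of a fraction, and the part of these cells in the signal of the 3 genes was not tested.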

How the data were processed

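The authors deposited 1 column of linear intensity per array, the signal of MAS5 per the submitters' processing notes (version not given in the sources used). Per the labels, 2 µg of total RNA gave the biotinylated cRNA of an array. The members and lists were chosen with earlier results of these data known. Of 45101 probe sets, 64 controls were left out, 34945 had 1 gene symbol, 932 several and 9160 none. Each gene was read from its brightest probe set by mean log2 signal, among those with 1 symbol. Signals below the pooled 25th percentile (20.7) were raised to it. Tests covered genes above the pooled median (84.7) on 2 or more arrays of a fit, and were two-sided with limma (version 3.58.1, under R 4.3.3; lmFit and then eBayes with trend) and Benjamini-Hochberg adjustment over all genes. The fits were also run on simulated data with independent noise on each array. That run cannot show how they fare where arrays share mice or lack replicates. Bulge was compared with HG within the 4 combinations of genotype and set, genotypes and sets with the other factor's cell by fraction as a block, and set effects within genotypes over 8 arrays with fraction as a term. In HFSCs, HG and bulge arrays of a condition are thus its observations. No HG or bulge group held a second array. In the set fits over HFSCs the residual is thus how differently HG and bulge respond to a condition. P-values and intervals there do not measure the spread between like arrays. The other fits with HG or bulge arrays take their residual from how an effect differs between sets, genotypes or fractions. Only in total keratinocytes is it the spread between arrays of a group, which need not be that between mice. With so few arrays all these values are imprecise. Genes named besides the members were the 3 on either side in the bulge minus HG order, the 5 of highest r, measured neighbours in the genome, and up to 4 of each list. Promoters come from RefSeq (GRCm38.p6) and were found for all 3 genes. Alternatives varied the normalization, floor, filter, probe sets, trend, blocks and arrays.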

Additional observations from a re-analysis of the deposited data

Results flagged for a closer look

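Of 21 effects compared between 2 fractions or genotypes, 6 went one way on every array pair in one group and oppositely in the other. Each group held only 2 pairs, and the 21 comparisons shared arrays. How often other genes meet this rule was not counted, so the 6 are a description and no result about these genes. For Cd34, set 2 over set 1 was higher in the bulge (mean log2 difference 0.14) and lower in HG (-0.62), a difference of 0.76 between the fractions. It was also lower in total keratinocytes (-0.71), a difference of 0.85 from the bulge. For Wfdc3, cKO over Het was lower in the bulge (-0.46) and higher in HG (0.62), a difference of -1.08. For Angptl7, cKO over Het was higher in the bulge (0.87) and in HG (1.39) and lower in total keratinocytes (-1.54), which gave differences of 2.42 and 2.94. The set effect of Angptl7 was positive in HG and bulge of cKO (mean 0.42) and negative in those of Het (-0.80), a difference of 1.22. The limma tests of the Cd34 and Wfdc3 differences between bulge and HG and of the last one stand above, and none passed. The comparisons of a single fraction with total keratinocytes were not tested. The test of HFSCs together against total keratinocytes gave 2.68 for Angptl7 (adjusted p = 0.87).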

How the results depend on the processing

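Of 27 results for the 3 genes, none of which passed, 358 alternatives gave 10 that passed and 19 of the other sign. The 10 that passed all left out arrays. Under the mean of all probe sets, Wfdc3 was 3.09 for bulge minus HG, and it turned to -0.38 for set 2 minus set 1 over all fractions, -0.75 in cKO HFSCs and -0.64 for the difference of set effects. Under quantile normalization, the set difference was 0.20 for Wfdc3 in Het HFSCs and 0.014 for Cd34 in cKO HFSCs. The 650 genes called between sets became 297 with a floor at the median, 0 with no filter, 141 with the mean of probe sets, 35 without trend and 233 with fraction as the only block, and the 89 in Het HFSCs became 26, 0, 20 and 0 under the first 4. The single gene of the difference of set effects was lost, leaving 0, with no floor, the median floor, no filter, the stricter filter, the mean of probe sets and no trend. The 2414 of bulge against HG became 648 with no filter and 1586 without trend. The causes were not tested.

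Leaving out arrays, the called genes were between 10 and 661 for sets, 0 and 2552 in Het HFSCs, 0 and 92 in cKO HFSCs, 0 and 994 for the difference of set effects, 0 and 1621 for the gap between genotypes, 0 and 881 for the gap between sets, 0 and 59 in total keratinocytes, and 1201 and 2807 for bulge against HG. The genotype difference over fractions lay between -0.28 and 0.078 for Wfdc3 and -0.15 and 0.67 for Angptl7. The set difference over fractions lay between -0.027 and 0.27 for Wfdc3. In Het HFSCs it lay between -0.96 and 0.12 for Cd34, -0.79 and 0.75 for Wfdc3, and -1.42 and -0.18 for Angptl7. In cKO HFSCs it lay between -0.27 and 0.16 for Cd34 and -0.022 and 1.13 for Wfdc3. The difference of set effects lay between -0.17 and 0.91 for Cd34, -0.20 and 1.34 for Wfdc3, and 0.60 and 1.85 for Angptl7. The gap between genotypes lay between -0.99 and 0.25 for Cd34, -1.70 and -0.47 for Wfdc3, and -1.19 and 0.15 for Angptl7. The gap between sets lay between 0.33 and 1.18 for Cd34, 0.24 and 1.62 for Wfdc3, and 0.45 and 1.39 for Angptl7. Angptl7 in total keratinocytes lay between -2.04 and -1.05.

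With the set as a replicate block in total keratinocytes, Angptl7 stayed at -1.54 and 0 genes were called. The set differences of cKO and Het correlated at 0.49 across 11121 genes, but with 2 pairs this does not settle whether the numbers pair the samples. Wfdc3 and Angptl7 did not pass the stricter filter in total keratinocytes and have no value there.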
